A study of Mus musculus with 8 samples.

Results

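The 7 genes described here belong to the myeloid granule and priming programme: Mpo, Elane, Prtn3 and Ctsg, which encode proteins stored in the primary granules of neutrophil precursors, Lyz2, which encodes the lysozyme of granulocytes and macrophages, and Irf8 and Cebpa, which encode transcription factors of the myeloid lineage. They were chosen by name from the 18174 gene symbols of the 8 deposited tables, and 6 of the 7 had a row in at least 1 table. The samples were individually sorted long-term hematopoietic stem cells (LT-HSC), profiled with mCEL-Seq2, a plate-based method that tags transcripts at their 3′ end with the barcode of the well and with a random unique molecular identifier (UMI). All cells came from the bone marrow of male C57BL/6J mice aged 18 months and were sorted as lineage-negative, CD150+, CD48-, CD34-, Kit+ and Sca1+. They were then divided into cells with and without the surface protein Dlk1, with 4 libraries of Dlk1+ and 4 of Dlk1- cells and 96 wells pooled in each library. No transgene, deletion or treatment is named for either group, and the labels name no animal behind a library, so the p-values below measure only the spread between libraries, which may be technical.

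Neutrophil precursors make Mpo (myeloperoxidase) and the serine proteases Elane (neutrophil elastase), Prtn3 (proteinase 3) and Ctsg (cathepsin G) early, at the promyelocyte stage, and store them in azurophil granules. Proteins of the later, specific granules, such as Ltf, Lcn2, Camp and Ngp, follow, and S100a8 and S100a9 fill the cytosol of maturing neutrophils. Cebpa encodes a factor needed for the step to granulocyte-monocyte progenitors and Irf8 a factor that favours monocytes and dendritic cells, and low myeloid transcript levels in stem cells have been called priming.

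Barcodes were counted as cells if they lay on their library's own side of the barcode set, were not among 10 barcodes left out, and carried at least 1000 UMIs. This left 541 cells, 220 in Dlk1+ (86, 27, 26 and 81 in replicates 1 to 4) and 321 in Dlk1- libraries (96, 36, 95 and 94). Kept cells held 38488 to 496831 UMIs per library, with medians of 1295.5 to 5521 UMIs per cell. Dlk1+ replicate 3 was the shallowest library, with 4 cells at 2000 UMIs or more. Of the 24 stem cell markers listed, all were tested between the groups, and a UMI of the list was found in 100% of cells with Prtn3 and 99.5% of cells without it. Of the 182 barcode numbers in use, 180 were kept in more than 1 library, since the libraries use the same barcode set.

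In GRCm38, the build named mm10 in the submitters' processing notes, Prtn3 (ENSMUSG00000057729.12) lies at chr10:79874476-79883174 on the plus strand, and the next gene, Elane (ENSMUSG00000020125.7), begins 3072 bases behind it at chr10:79886247-79888215. The first 159 bases of Prtn3 overlap Plppr3 on the other strand, far from the 3′ end that the method reads. Mpo is at chr11:87793581-87804413 and Ctsg at chr14:56099881-56102574, on the minus strand. Lyz2 is at chr10:117277331-117282321, next to its paralog Lyz1 at chr10:117287797-117292868, both on the minus strand. Irf8 is at chr8:120736358-120756694, inside a longer gene model of the same strand, Gm20388, and Cebpa at chr7:35119293-35121928. All 7 are protein-coding genes.

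The bases before the start sites of the 4 granule genes are shown because Prtn3 was detected in many cells of these data and Mpo, Elane and Ctsg in 1, 6 and 2 cells. The stretches are RefSeq promoter sequence of build GRCm38.p6, read along the gene and ended where an annotated exon begins. They cover chr11:87793534-87793580 for Mpo, chr10:79886062-79886246 for Elane, chr10:79879417-79879613 for Prtn3, which is upstream of the RefSeq start and within the longer GENCODE gene model, and chr14:56102575-56102824 (minus strand) for Ctsg. Capitals mark GAGGAAGT, the core of sites bound by the ETS factor PU.1 (encoded by Spi1).
Mpo: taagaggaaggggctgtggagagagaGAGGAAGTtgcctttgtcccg
Elane: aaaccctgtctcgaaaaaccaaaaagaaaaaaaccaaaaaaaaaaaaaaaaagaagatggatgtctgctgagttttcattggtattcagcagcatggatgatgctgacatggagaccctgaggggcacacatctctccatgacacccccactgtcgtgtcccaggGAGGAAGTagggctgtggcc
Prtn3: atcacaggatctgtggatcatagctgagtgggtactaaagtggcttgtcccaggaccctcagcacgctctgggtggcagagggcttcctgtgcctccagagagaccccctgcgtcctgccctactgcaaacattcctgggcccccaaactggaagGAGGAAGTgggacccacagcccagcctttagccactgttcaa
Ctsg: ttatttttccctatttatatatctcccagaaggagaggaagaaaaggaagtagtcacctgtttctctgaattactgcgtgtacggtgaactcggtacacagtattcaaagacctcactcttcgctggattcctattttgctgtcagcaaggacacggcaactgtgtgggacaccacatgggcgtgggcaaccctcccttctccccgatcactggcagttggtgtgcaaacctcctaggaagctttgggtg
Searched on both strands of the 250 bases before each start, GAGGAAGT occurred before Mpo, Elane and Prtn3 and in 2.44% of 32851 promoters, and it was not found in the windows of the other 4 members. These 8 letters were chosen after the promoters had been read, and the shorter GAGGAA, found within them, occurred before all 4 granule genes and in 23.3% of all promoters. TTGCNNAA, a motif of C/EBP factors, was found in the window of no member, against 9.56% of all promoters. The same PU.1 letters thus stood before Prtn3, which was detected in many cells, and before Mpo and Elane, which were not; a match is a description and not a bound site.

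The granule signal had 2 forms, one spread over many cells and one held by a single barcode. Prtn3 was the spread one: it had 807 UMIs in 352 of the 541 kept cells (65.1%). Mpo, Elane and Ctsg together had 357 UMIs, of which 98.3% lay on barcode 91 of Dlk1+ replicate 4. A granule UMI of any of the 4 genes was seen in 353 cells, and in all but 1 of these Prtn3 was the gene, or one of the genes, seen.

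Mpo had a row in the table of Dlk1+ replicate 4 alone, where all of its 161 UMIs were on barcode 91. With no row counted as 0 UMIs, no Mpo UMI was seen in the other 540 kept cells, which allows up to 0.556% of cells with a Mpo UMI (3 counts, counting error only). That limit concerns cells with a UMI, since at these depths a cell can express Mpo and show none. Elane had 131 UMIs in kept cells, 126 of them on barcode 91, and the other 5 were single UMIs on barcodes 49, 61, 63, 75 and 87 of the same library. Outside the kept cells Elane had 1 more UMI, on a barcode of Dlk1+ replicate 3 with fewer than 1000 UMIs. Ctsg had 65 UMIs, 64 on barcode 91 and 1 on barcode 7 of that library. The 3 Dlk1+ libraries 1 to 3 and all 4 Dlk1- libraries thus had 0 UMIs of Mpo, Elane and Ctsg in kept cells.

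**Figure D1:**
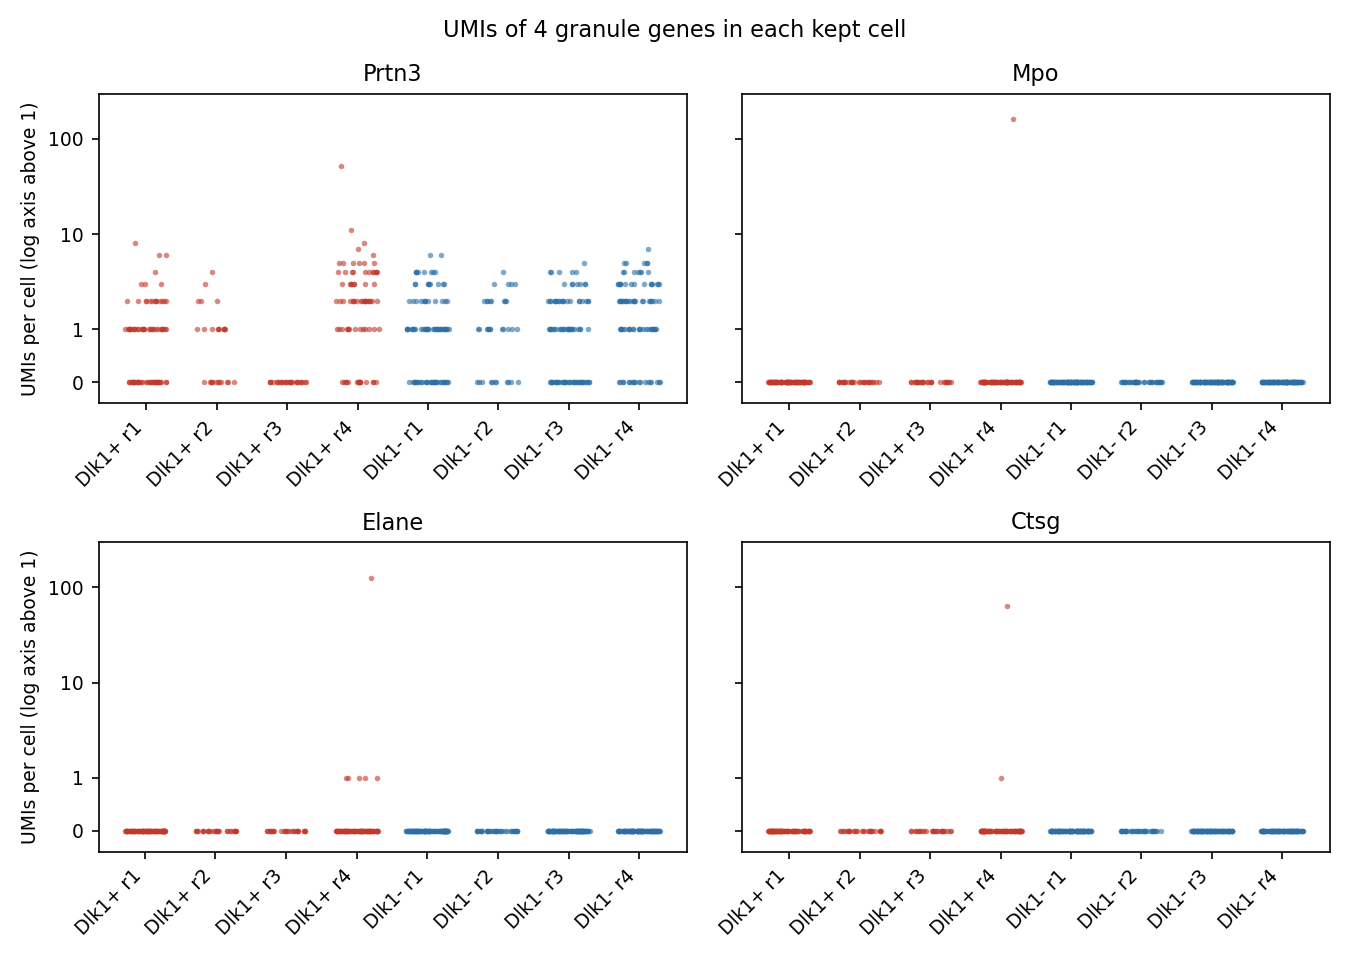
UMIs of Prtn3, Mpo, Elane and Ctsg (vertical axis, logarithmic above 1) in each of the 541 kept cells (points) by library (r1 to r4, replicates 1 to 4), with Dlk1+ in red and Dlk1- in blue. Prtn3 is spread over 7 libraries, whereas Mpo, Elane and Ctsg stand at 161, 126 and 64 UMIs in 1 cell of Dlk1+ replicate 4 and at 0 or 1 in all others.

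Set against all genes, this concentration was rare. Of 9587 genes with at least 20 UMIs, 25 (0.261%) had at least 50% of their UMIs in 1 cell, and for all 25 that cell was barcode 91 of Dlk1+ replicate 4. Of the 4 members with at least 20 UMIs, Mpo (100%), Ctsg (98.5%) and Elane (96.2%) were among the 25, and the gene with the highest share outside the 25 had 42.9%. In other cells Mpo, Ctsg and Elane had 0, 1 and 5 UMIs, so they reached the minimum of 20 through barcode 91 alone. Their place among the 25 was thereby fixed and is a description only. The median gene had 3.75% of its UMIs in its top cell, and Prtn3 had 6.44%, its 52 UMIs on the same barcode. A gene with few UMIs cannot have a small share, so this median is not matched to the 807 UMIs of Prtn3. The other genes of the 25 included S100a8, S100a9, Ngp, Camp, Lcn2, Ltf, Retnlg, Chil3, Fcnb and Ly6c2, all known from neutrophils or monocytes. Those 10 were named after their values were seen.

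**Figure D2:**
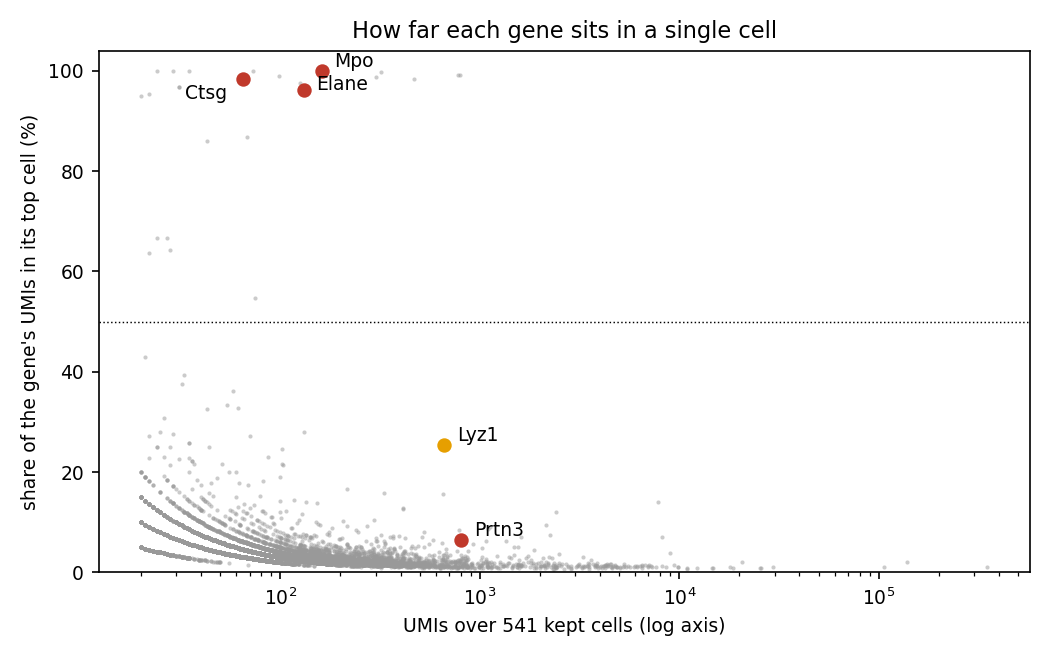
Share of each gene's UMIs found in its top cell (vertical axis, percent) against its UMIs over the 541 kept cells (horizontal axis, logarithmic), for 9587 genes (grey), with granule genes in red and Lyz1 in orange. Mpo, Ctsg and Elane lie between 96.2% and 100%, above the dotted line at 50%, and Prtn3 lies at 6.44%.

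Barcode 91 carried 36327 UMIs of 6597 genes, 7.52 times the median of 4832 UMIs of the other 80 kept cells of Dlk1+ replicate 4 and 8.07% of the library. The highest total among the other 540 kept cells was 14443 UMIs. No doublet caller was run, and whether the barcode holds 1 cell or more was not tested. Although sorted as Dlk1+, it had 0 Dlk1 UMIs, which allows up to 82.6 CPM (counts scaled to a total of 1000000 in the cell or cells concerned, here of whole UMIs, as for all marker levels; 3 counts), whereas the other 80 cells had 705 CPM and 78.8% of them had a Dlk1 UMI. The same barcode number had 4 UMIs of the mature neutrophil list among 76 UMIs in Dlk1- replicate 2 and 1 among 91 in Dlk1- replicate 4, where it is an unused barcode, and 2 among 4947 in Dlk1+ replicate 1. In the other 4 libraries it had 0 of that list, among 33 to 2300 UMIs.

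The mature neutrophil list was detected in full on barcode 91, with 12 of 12 genes and 2894 UMIs, or 79665 CPM (95% exact Poisson interval 76789 to 82622, counting error only). S100a9 had 784 UMIs, S100a8 771, Ngp 458 and Camp 318. In the other 80 cells the same list came to 29 UMIs in 24 cells, or 70.1 CPM (46.9 to 100.6). Other primary granule genes were also high there: 15 of 15 were detected, at 9002 CPM (8052 to 10032) against 2693 (2538 to 2856) in the other cells. Within that list Ms4a3 (16 UMIs), Hdc (16) and Clec12a (6) had no UMI in any other kept cell, whereas Srgn, the proteoglycan core that packs granule proteins, had 58 UMIs on the barcode and was present in 94.3% of the other kept cells. The monocyte and macrophage list was also high on the barcode, at 6414 CPM (5617 to 7293) against 314 (262 to 373) in the other 80 cells, 168 of its 233 UMIs being of Lyz1, as was the progenitor list, at 3634 CPM (3040 to 4309) against 304 (254 to 362). The list of 18 other myeloid regulators, receptors among them, came to 2422 CPM (1943 to 2985) against 2375 (2228 to 2528). Egr1 alone gave 1184 CPM of it in the other 80 cells and had 0 UMIs on the barcode. Myb (716 against 297 CPM) and Cebpb (275 against 176) were higher on the barcode, and Runx1 (138 against 237) was lower. Egr1, Myb, Runx1 and Cebpb are the 4 genes of that list with most UMIs. The list of basophils, mast cells and eosinophils had 5 UMIs against 0. No UMI was found of the 9 erythroid genes, which allows up to 82.6 CPM, against 162 CPM (125 to 206) in the other cells. The B cell list had 1 UMI, of Cd79b, and the T cell list none, but only 5 and 2 of their 8 genes each had a row, and their levels in the other cells (28.99 and 7.25 CPM) were below what a count of 0 allows here. Of the gene list of cycling cells, all 12 were detected, at 2450 CPM (1968 to 3015) against 1106 (1007 to 1212).

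Stem markers were present on barcode 91 but took a smaller share of its UMIs than in its neighbours. It had UMIs of 22 of the 24 stem genes, 96 UMIs in all, or 2643 CPM (2141 to 3227), whereas the other 80 cells had 7764 (7498 to 8037), which is 2.94 times as much. In plain counts the barcode was not low: the other 80 cells together held 3214 stem UMIs, with a median of 15 stem genes each. On the barcode Mecom was at 0, against 179 CPM in the other 80 cells. Tek was also at 0, but its 31.4 CPM in the other cells was below the 82.6 CPM that a count of 0 allows here. Hlf, a transcription factor of stem cells, had 13 UMIs (358 CPM against 701). Slamf1, Kit and Ly6a, which encode the surface proteins CD150, Kit and Sca1 of the sort, together had 8 UMIs (220 CPM, 95.1 to 434, against 771, 688 to 860). Cd48, which the sort selected against, had 5 UMIs on this barcode and none in the other 540 kept cells. Cd34, also selected against, went the other way, with 1 UMI (27.5 CPM) against 65.2 CPM in the other 80 cells. A Cd34 UMI was seen in 20% of the other 540 kept cells. With every cell thinned to 2000 UMIs the barcode had 6 stem UMIs of 3 genes, and the other 78 cells of that depth had a median of 16.5 UMIs of 10 genes (range 0 to 31 UMIs). Since it is 1 barcode, these differences have no replicate and no test.

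**Figure D3:**
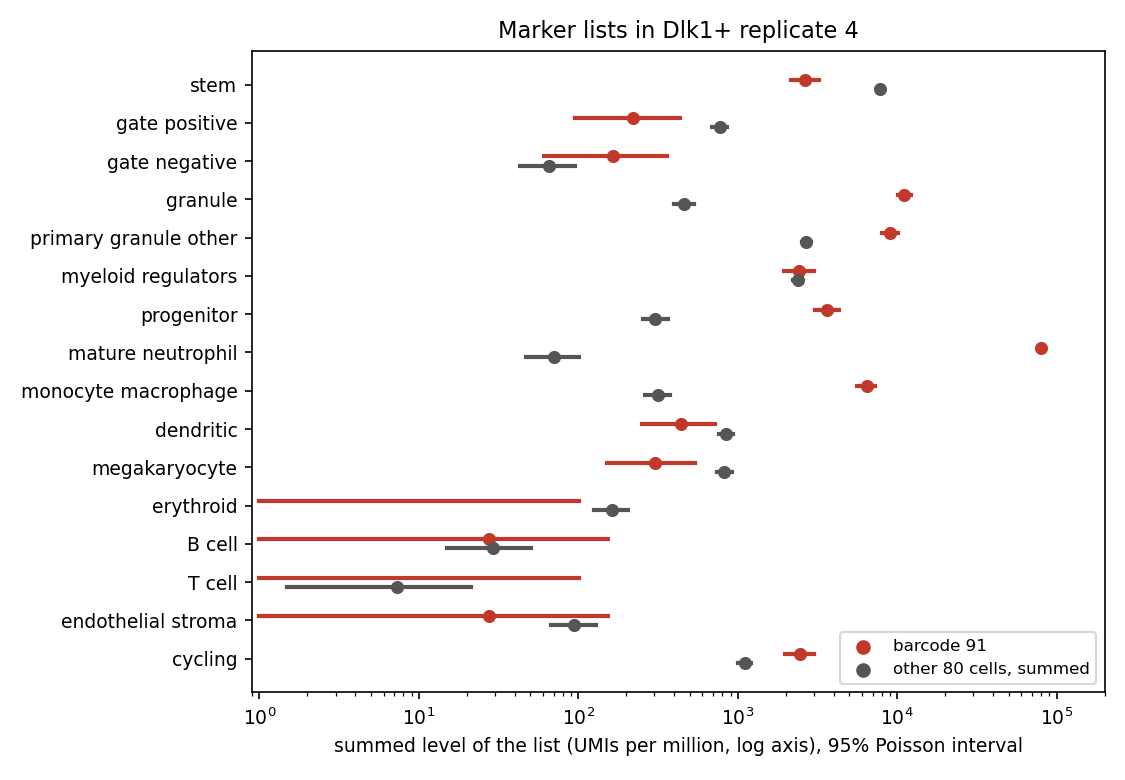
Summed level of each marker list (horizontal axis, CPM, logarithmic) on barcode 91 (red) and over the other 80 kept cells (grey) of Dlk1+ replicate 4, with lines for 95% exact Poisson intervals and no point where the count is 0. The mature neutrophil list stands at 79665 against 70.1, and the stem list at 2643 against 7764.

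The 6 cells with UMIs of at least 2 granule genes were all in Dlk1+ replicate 4. Besides barcode 91 they were barcodes 7, 61, 63, 75 and 87, each with 1 UMI of Ctsg or Elane next to 1 to 4 UMIs of Prtn3. These 5 cells kept stem markers: they had 40 to 65 stem UMIs of 12 to 17 genes, and the median of the 80 cells was 15 genes. Barcode 49, with 1 Elane UMI and no Prtn3, had 21 stem UMIs of 6 genes among 3408 UMIs. The library of barcode 91 also had the highest level of mature neutrophil genes in its other cells, 70.1 CPM against 19.1 to 52.0 in the other 7 libraries. RNA or barcode spill-over from barcode 91 as a part of these single UMIs was not tested. The share of cells with at least 2 granule genes was 7.41% in Dlk1+ replicate 4 and 0% in the 7 other libraries, so the group means of 1.85% ± 3.70 and 0% (SD, n = 4 each) rest on 1 library.

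Prtn3 outside barcode 91 was spread thinly. It had 755 UMIs in 351 of the other 540 cells (65.0%), of which 149 had 1 UMI, 99 had 2, 47 had 3 and 56 had 4 or more, with a highest value of 11. The variance of its UMIs per cell was 1.70 times the mean, and over all genes with at least 20 UMIs that ratio had a median of 1.15. With barcode 91 included the ratio of Prtn3 was 4.77. These ratios were not matched for the level of a gene or the depth of a cell, so extra variation of Prtn3 was not tested. Prtn3-positive cells were deeper, with a median of 4903.5 UMIs against 3496 in the others.

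Prtn3 was found at similar levels in both groups, except in 1 library. In CPM of the deposited estimated counts, it had 225, 224, 0 and 517 in Dlk1+ replicates 1 to 4, and 249, 191, 233 and 367 in Dlk1- replicates 1 to 4. Without barcode 91 Dlk1+ replicate 4 had 439 CPM. Replicate 4 was thus the highest library of each group, and the groups overlapped. The totals behind these CPM include the transcripts Gm10800 and Gm26870. They took 10.4% in Dlk1+ replicate 4 (without barcode 91) and 11.7% in Dlk1- replicate 4, against 22.8% to 32.8% in the other libraries. Their part in the higher Prtn3 levels was not tested. The share of cells with a Prtn3 UMI was 58.1%, 55.6%, 0% and 79.0% in Dlk1+ (95% Wilson intervals 47.6 to 68.0, 37.3 to 72.4, 0 to 12.9 and 68.9 to 86.5) and 67.7%, 69.4%, 61.1% and 79.8% in Dlk1- libraries (57.8 to 76.2, 53.1 to 82.0, 51.0 to 70.2 and 70.6 to 86.7). The group means were 48.2% ± 33.8 and 69.5% ± 7.75 (SD, n = 4 each). At an equal depth of 2000 UMIs (30 shallower Dlk1+ cells and 14 shallower Dlk1- cells dropped) they were 28.4% ± 22.1 and 44.8% ± 6.54.

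In the fit across all genes, Prtn3 did not pass the threshold. Its log2 fold change of Dlk1+ over Dlk1- was -0.18 with a standard error of 0.52, a 95% interval of -1.26 to 0.91 and an adjusted p of 0.965 (limma-voom, Benjamini-Hochberg over 5666 genes). Without Dlk1+ replicate 3 the value turned to 0.34, and without barcode 91 it was -0.22 with an adjusted p of 0.945. Of the 5666 genes, 2 (0.0353%) passed the threshold, namely Timp3 and Dlk1 itself, each with its higher level in the Dlk1+ group. Dlk1 alone was called with the replicate number as a block, with a minimum of 2000 UMIs, after thinning and with limma-trend, and likewise without Dlk1+ replicate 2 or Dlk1- replicate 3. Of the 7 members Prtn3 alone passed the filter on low counts, so 0 of 1 tested member was called. In the fit with no such filter, where 3 of 17884 genes (0.0168%) were called, the adjusted p was 0.403 for Mpo and Elane, 0.424 for Ctsg, 0.548 for Cebpa and 0.724 for Irf8. Mpo, Elane, Ctsg and Cebpa had UMIs in kept cells of 1 library only, 83.3% to 100% of them on barcode 91. For these genes the fit mainly sets 1 barcode against zeros and cannot tell whether the groups differ.

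Dlk1+ replicate 3 stood apart for Prtn3. No Prtn3 UMI lay in its 26 kept cells, which allows up to 76.8 CPM (3 counts), below the 191 CPM of the next lowest library. Counting all 86 of its barcodes whatever their depth, it had 2 Prtn3 UMIs in 77742 UMIs (25.5 CPM), and the other libraries had 192.4 to 517.8 CPM on that count. Lyz1 had 128 CPM in this library, from 5 UMIs, and 127 CPM in Dlk1+ replicate 2, the lowest library for Lyz1. A Lyz1 UMI was seen in 19.2% of its cells, the lowest share of all libraries (37.0% to 64.2% in the others). Ribosomal protein genes took 9.27% of its transcripts, within the range of 7.86% to 12.9% of the other libraries. Dlk1+ replicate 3 was the shallowest library, and the part of depth in the missing Prtn3 was not tested beyond these counts.

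**Figure D4:**
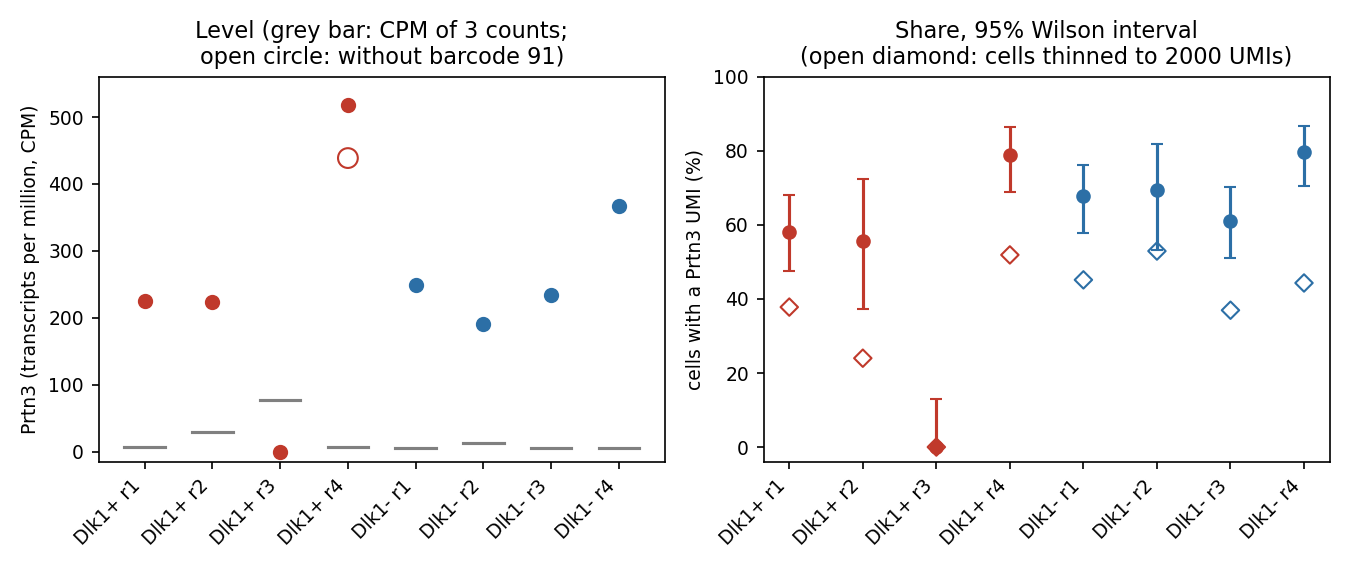
Prtn3 by library (r1 to r4, replicates 1 to 4; Dlk1+ red, Dlk1- blue): the left panel shows CPM (points), the CPM of 3 counts (grey bars) and Dlk1+ replicate 4 without barcode 91 (open circle), and the right panel the percent of kept cells with a UMI with 95% Wilson intervals, before and after thinning to 2000 UMIs (open diamonds). Dlk1+ replicate 3 is at 0, and the other 7 libraries lie between 191 and 517 CPM.

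Barcodes with no cell gave a measure of barcode leakage. The 728 unused barcodes held 23663 UMIs, 32.5 each, with 2 UMIs of Prtn3, 1 of Irf8 and none of Mpo, Elane, Ctsg or Cebpa. That was 0.00275 Prtn3 UMIs per unused barcode, against 1.40 per kept cell without barcode 91. As a level among their own UMIs the 2 Prtn3 counts came to 84.5 CPM (95% exact Poisson interval 10.2 to 305), an interval that holds the 294 CPM of the kept cells without barcode 91, so the composition of the leaked RNA could not be told from that of the cells. The mature neutrophil list had 10 UMIs on the unused barcodes of the 7 libraries other than Dlk1+ replicate 4, or 515 CPM of their 19400 UMIs, against 19.1 to 52.0 CPM in the kept cells of those libraries. Of these 10, 5 were in Dlk1- replicate 2, 4 of them on barcode number 91, and 3 in Dlk1- replicate 4, 1 of them on that number. The level of 515 CPM is thus not spread evenly over unused barcodes, and the part of leakage between libraries in it was not tested. Unused barcodes had no well, so they do not show RNA sorted along with a cell, and no cell type that should lack Prtn3 was in the plates.

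Lyz2 had no row in any of the 8 tables, while its paralog Lyz1, which encodes the lysozyme of intestinal Paneth cells, had a row in all 8. The transcripts of the pair share a longest identical run of 118 bases, and 21.9% of the 50-base windows in the last 300 bases of Lyz1 occur in Lyz2. How reads shared by the pair were assigned is not given in the sources used here, so Lyz1 values are uncertain as to the gene. Lyz1 had 663 UMIs in 284 cells (52.5%), 168 of them on barcode 91, and the other 495 lay in 283 cells with at most 8 each. Without barcode 91 it had 177, 127, 128 and 257 CPM in Dlk1+ and 153, 221, 158 and 197 CPM in Dlk1- replicates 1 to 4, which overlap. Unused barcodes had 9 Lyz1 UMIs, or 380 CPM (174 to 722), a level not below that of the kept cells without barcode 91 (192.7 CPM), though per barcode it was 0.0124 against 0.917 UMIs. A Lyz1 UMI was seen in 59.7% of Prtn3-positive and 39.2% of Prtn3-negative cells, whose median depths of 4903.5 and 3496 UMIs also differed.

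The 2 regulators were near the limit of detection. Cebpa had 6 UMIs, all in Dlk1+ replicate 4, 5 on barcode 91 and 1 on barcode 61, one of the cells with an Elane UMI. Irf8 had 6 single UMIs, 3 in Dlk1+ replicate 4, 2 in Dlk1- replicate 2 and 1 in Dlk1- replicate 4, and none on barcode 91. All 6 cells with Irf8 also had Prtn3 (1 to 11 UMIs) and kept stem markers, with 27 to 67 stem UMIs of 13 to 19 genes. At this depth no difference between groups was detectable for either gene.

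Other genes of the myeloid programme gave no call between the groups. Of 18 other myeloid regulators, receptors among them, 9 passed the filter and 0 were called in either direction, with a median log2 fold change of 0.10 against -0.04 over all genes tested. Egr1 had a log2 fold change of 0.10 (standard error 0.23), Myb -0.30 (0.32), Runx1 0.11 (0.23) and Cebpb -0.26 (0.45). Of 15 other primary granule genes 7 passed and 0 were called, with a median of 0.11, and none of the 12 mature neutrophil genes passed the filter. Of the 24 stem genes all passed and 0 were called, with a median of 0.01. Spi1, the gene of PU.1, had 60 UMIs, 12 of them on barcode 91, and Cebpe, a factor of late granule genes, had all of its 7 UMIs there; both were named after their values were seen. Spi1 stood at 330 CPM on barcode 91 against 19.3 in the other 80 cells of its library. The list of 18 regulators summed to 2422 CPM on barcode 91 against 2375 in those 80 cells, where Egr1 alone gave 1184 CPM.

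The last question was whether cells with granule transcripts keep the stem programme. In 7 libraries with at least 3 such cells, the summed stem list stood at 5947, 6160 and 7314 CPM in granule-positive cells of Dlk1+ replicates 1, 2 and 4, against 5062, 7610 and 7571 in the other cells. In Dlk1- replicates 1 to 4 it was 5542, 5821, 5698 and 7155 against 5176, 4338, 5708 and 7256. Granule-positive cells were thus lower in 4 libraries and higher in 3. The mean difference was 0.05 ± 0.23 on the log2(CPM + 1) scale (SD, n = 7 libraries; exact permutation test of all sign changes, two-sided p = 0.562, the smallest possible being 0.0156). Without barcode 91 it was 0.07 ± 0.23 (p = 0.438, same exact test). Granule-positive here means Prtn3-positive in all but 1 cell.

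**Figure D5:**
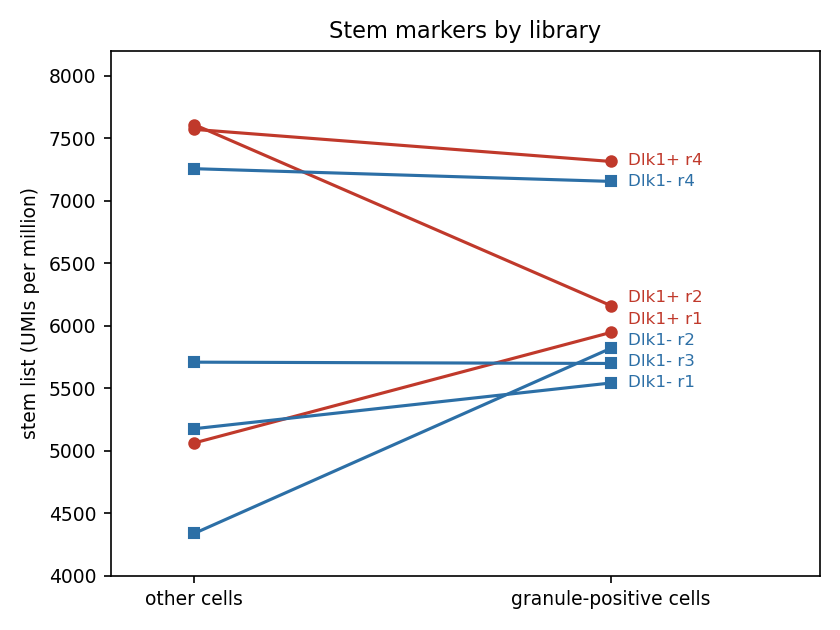
Summed level of the 24 stem genes (vertical axis, CPM, starting at 4000) in other cells and in granule-positive cells of 7 libraries, joined by lines (Dlk1+ red circles, Dlk1- blue squares; r1 to r4, replicates 1 to 4). The lines go down in 4 libraries and up in 3.

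By gene, the levels in Prtn3-positive and other cells were close for some stem genes and apart for others, with no test. Leaving out barcode 91, Hlf had 573 CPM in Prtn3-positive and 520 in other cells, Kit 449 and 418, Ifitm1 1157 and 972, and Ifitm3 584 and 524, these being the 4 with most UMIs. Procr, which encodes the surface receptor EPCR of stem cells, had 133 against 94.3 CPM and Tie1, a receptor tyrosine kinase gene, 240 against 195, each higher in 6 of 7 libraries. Pdzk1ip1 had 283 against 234 CPM (higher in 5 of 7) and Ctnnal1 36.4 against 23.9 (5 of 7), whereas Tek had 19.3 against 27.9 (lower in 5 of 7). Myct1, with 184 against 195 CPM (lower in 5 of 7), and Gata2, with 411 against 439 (lower in 4 of 7), were also lower. The genes from Procr to Gata2 were named after their values were seen. Of the sort genes besides Kit, Slamf1 had 63.9 against 73.0 CPM (lower in 5 of 7) and Ly6a 142 against 139 (higher in 5 of 7). The genes that the sort selected against, Cd34 and Cd48, summed to 60.0 against 46.5 CPM (higher in 6 of 7). Their mean difference was 0.51 ± 0.83 (log2 scale, SD), and all of their 144 UMIs outside barcode 91 were of Cd34. After thinning to 2000 UMIs, the median number of stem genes was equal in Prtn3-positive and Prtn3-negative cells of Dlk1+ replicate 1 (8), Dlk1+ replicate 4 (10) and Dlk1- replicate 1 (8). It was 8 against 9 in Dlk1+ replicate 2, and 8 against 6, 8 against 7 and 9 against 8.5 in Dlk1- replicates 2 to 4. At that depth no Prtn3-positive cell was without a stem UMI. Other lists are given as counts of libraries with no test: the megakaryocyte list was higher in Prtn3-positive cells in 7 of 7 libraries (mean difference 0.47 ± 0.36, log2 scale, SD), other myeloid regulators in 6, other primary granule genes in 5 and cycling genes in 3. The mature neutrophil list was lower in 5 of 7, at 33.1 against 37.2 CPM over all libraries, but its mean difference was 0.65 ± 2.42 and 14.2% of Prtn3-positive against 11.1% of other cells had a UMI of it. With 88 UMIs outside barcode 91 these values give no direction.

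By likeness across the 541 cells, with library means subtracted, the genes most like the granule sum included Gm17541 (a processed pseudogene, Pearson r = 0.28), Rps24, Rpl5, Eef1a1, Eef2 and Rpl21, the last with r = 0.24. The median over 9572 genes was 0.02. These are genes of ribosomes and translation with high counts, and Prtn3 against the summed ribosomal protein genes gave r = 0.25 over 540 cells. Cells share library, depth and composition, and correlations this weak in sparse counts are a description only.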

How the data were processed

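Per the labels' protocols, libraries were made by mCEL-Seq2 from sorted cells. The submitters' processing notes name BWA 0.6.2-r126 and mm10, and read filters and the annotation are not given in the sources used here. The authors deposited 1 table per library with estimated counts per gene symbol and barcode (192 barcodes), not scaled for depth. Inverting the usual correction for UMI collisions (4096 UMIs) gave whole UMIs to within 3.64e-12. Those whole counts were used for shares, per-cell values and marker levels, and the estimated counts for CPM and library sums. Barcodes 17, 20 to 24 and 29 to 32, which carry haemoglobin transcripts in libraries with no cell there, were left out.

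Library sums over kept cells, rounded, were compared with limma-voom (limma 3.58.1, R 4.3.3), which took the place of the planned count model since the tables could not be recorded as plain counts. TMM factors (trimmed mean of M-values) scaled the libraries. Genes entered with a total of at least 15 and, in at least 4 libraries, a CPM no lower than 10 counts give in a library of median size. The threshold was an adjusted p of 0.05. Tested on simulated data for this comparison (5666 genes), the fit found 4% of changed genes at a 2-fold change (1 false call), 70.5% at 4-fold (8 false calls) and 81% at 8-fold (11 false calls). Replicates 1 and 2 were on plate 5 and 3 and 4 on plate 6, per the names of the deposited tables.

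The members and gene lists were chosen with earlier results of these data known. Named genes are the 7 members, the 4 genes with most UMIs of a list or those of the sort, and the 8 genes most like the granule sum, of which some are not reported here, with exceptions named as such. Genes with no row in a table were counted as 0 UMIs.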

Additional observations from a re-analysis of the deposited data

Results flagged for a closer look

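In 11 of 20 groups of 4 libraries with any spread, 1 library stood apart from the other 3 by the gap to its neighbour relative to the range, where chance gives about 1 in 20. It was Dlk1+ replicate 4 in all 11. For CPM these were Mpo (359), Elane (291), Ctsg (143), Cebpa (13.1), Irf8 (6.57) and Lyz1 (612), and for the percent of cells with a UMI Elane (7.41), Irf8 (3.70), Ctsg (2.47), Cebpa (2.47) and Mpo (1.23). The other 3 libraries of the group had 0 for all of these genes but Lyz1, so any UMI in 1 library sets it apart. Not all of this rests on barcode 91: the 3 UMIs of Irf8 lay on other barcodes. Without barcode 91, Elane still had a UMI in 6.25% of cells of Dlk1+ replicate 4, and Ctsg and Cebpa in 1.25% each.

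Signals outside the kept cells were 20 Prtn3 UMIs on the 10 barcodes left out of the Dlk1+ libraries, where the Dlk1- libraries had 0 on the same barcodes, and 9 Lyz1 UMIs on unused barcodes, above the 3 that a count of 0 allows. In the Dlk1+ libraries the 10 barcodes were used for sorted cells.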

How the results depend on the processing

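Of the alternatives, the count of 2 called genes became 1 with the replicate block, with a minimum of 2000 UMIs, with cells thinned to 2000 UMIs and with limma-trend, Timp3 being the gene lost each time, and 4 with the 10 barcodes kept. Leaving out 1 library gave 1 to 19, the 19 without Dlk1+ replicate 4. No member was among the called genes under any setting run. The log2 fold change of Prtn3 turned to 0.0214 with a minimum of 2000 UMIs. It ranged from -0.57 to 0.34 with 1 library left out, the positive value being without Dlk1+ replicate 3, and was -0.92 with limma-trend. Its adjusted p was 0.693 to 0.996 over the alternatives (limma). With the replicate block it was -0.21, with an adjusted p of 0.939. Same-numbered libraries correlated at 0.03 to 0.04 in their deviations from the group means, and each library correlated best with its own number. The labels name no animal, and the main fit took no pairs. Whether the numbers mark pairs is not settled by correlations this small. The difference in stem level turned to -0.0245 with Gm10800 and Gm26870 left out of the total and ranged from -0.00777 (without Dlk1- replicate 2) to 0.11 with 1 library left out. It was 0.14 with a minimum of 500 UMIs and highest, at 0.35, as a mean over cells, where 1 of 7 libraries was lower. Over the settings run the exact permutation p was 0.156 to 0.906 (n = 6 to 8 libraries). The share of cells with a granule UMI was 48.5% in Dlk1+ and 69.5% in Dlk1- libraries on average, and the difference shrank to -3.57 percentage points at 1000 UMIs per cell and to -4.85 points without Dlk1+ replicate 3. The share with at least 2 granule genes differed by 1.85 points and by 0 without Dlk1+ replicate 4. The cause of these changes was not tested. DESeq2 was not run. Members other than Prtn3 have no value where the filter on low counts is applied. Leaving out barcode 91, limma-trend and the stem list without Ifitm1 and Ifitm3 were added after seeing the data.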
